A study of Mus musculus with 20 samples.

Results

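Lungs of mouse embryos whose mesenchyme lacked the glucocorticoid receptor were followed through the last part of gestation, by setting 5 left lobes taken at E18.5 against 5 taken at E16.5. These 10 arrays were chosen by their titles out of the 20 of the study. The mutants, written GRCol1-Cre, carried GR flox alleles and a Cre transgene on a bacterial artificial chromosome with the Col1a2 locus, which removes the receptor gene Nr3c1 from mesenchymal cells. Controls were GR flox embryos, with 5 arrays at E16.5 and 5 at E18.5. All embryos were on the C57Bl6 background, and each array, an Affymetrix Mouse430A_2 chip, held total RNA of 1 animal. Litters are not named. Each array measured the whole lobe, with epithelial, endothelial and blood cells that keep the receptor by design, so fewer cells of a type and less RNA per cell cannot be told apart. The comparison asks which steps of late lung maturation go ahead when mesenchyme lacks the receptor. The controls enter only to show where the mutants' course differed.

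In the last days before birth the distal lung turns from a branching, dividing tissue into thin air sacs. Type II cells store surfactant, the lipid and protein film that keeps air sacs open, type I cells flatten to form the gas exchange surface, and the mesenchyme thins and lays down elastic fibres. Fetal glucocorticoid rises over the same days, and its receptor, a ligand-activated transcription factor, is needed for this maturation.

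Values are deposited log2 expression values, so that a difference of 1 is a doubling, and a value under 4 is called dim. A gene was called when its limma p, adjusted with Benjamini-Hochberg over 8068 genes, was under 0.05, and the words rose and fell are used only of called genes. Errors of means are SD over 5 arrays and errors of differences are limma standard errors (SE).

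The array medians of the 10 mutants lay between 5.73 and 5.87, and correlations between arrays of 1 group were 0.984 to 0.995 at E16.5 and 0.976 to 0.995 at E18.5. On an axis set at 0 for the E16.5 mutant mean and 1 for the E18.5 mutant mean, with each array left out of its own group's mean, E18.5 mutant replicates 3 and 5 stood at 1.25 and 1.27 and replicates 1, 2 and 4 at 0.85, 0.83 and 0.71. On the controls' own axis, E18.5 control replicate 3 stood at 0.70 and E16.5 control replicate 5 at 0.21, both between the stages. Mutant arrays lay between the stages too, with E16.5 mutant replicate 5 at 0.23 and E18.5 mutant replicate 4 at 0.71 on the mutants' axis. Only the control arrays were left out together in a later fit. By Xist and the Y-linked genes all 5 E16.5 mutants were female, against 2 of the 5 E18.5 mutants (replicates 2 and 4), so sex and stage partly coincide in the mutants. Among controls, 1 of 5 embryos was female at E16.5 and 3 of 5 at E18.5. Markers of cardiac muscle also moved with stage, with 9 of 14 tested members called higher in mutants, against 28.7% of all genes. The mean of that list was 4.39 to 5.51 at E16.5 and 5.60 to 6.22 at E18.5, and its part in the other changes was not tested.

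Transcript of the targeted gene, Nr3c1, was measured at both stages of the mutants. Whether its probe sets lie in the deleted part of the gene was not analysed here, so the values do not tell intact from truncated transcript. It read 6.31, 7.22, 7.50, 7.10 and 7.19 in E16.5 mutants and 7.79, 7.57, 8.05, 7.67 and 7.89 in E18.5 mutants. Every E18.5 value was above every E16.5 value, and the gene rose by 0.73 (SE 0.17, adjusted p = 0.00153). The controls, at a higher level, rose by 0.63 (SE 0.17), and the 2 changes differed by 0.10 with a 95% interval of -0.42 to 0.61. The rise in mutants was not called in female embryos alone (0.55, adjusted p = 0.157). Col1a2, whose locus drives the Cre and which encodes a chain of collagen I, stood at 12.94 ± 0.13 and 13.12 ± 0.13 in mutants at the 2 stages, and its change of 0.18 was not called.

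Most of the late programme moved in the mutants in the direction it took in controls, by smaller amounts. In mutants 2313 genes rose and 2225 fell, which is 28.7% and 27.6% of those tested, or 56.2% together. In controls 2851 rose and 2867 fell (35.3% and 35.5%, or 70.9% together). Of the genes that rose in mutants 92.3% also rose in controls, and of those that rose in controls 74.9% also rose in mutants. For falls the shares were 92.6% and 71.9%. Genes called higher in controls changed by a median of 0.73 in controls and 0.49 in mutants, and genes called lower by -0.58 and -0.38, where the choice of genes by their control change favours the larger control value. Genes called higher in mutants, a choice that favours the mutants, changed by a median of 0.59 in mutants and 0.81 in controls, and those called lower by -0.48 and -0.66. Across the 8068 genes the mutant and control changes, which share no array, correlated with r = 0.907 (Spearman rho 0.924). This describes genes, which are not independent replicates. A change of at least 2-fold was called in 603 rising and 293 falling genes of the mutants.

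The difference between the mutant and the control change was itself tested with limma, and 678 genes (8.4%) were called, 1 of them the Y-linked Kdm5d. In 576 of them the mutants moved the same way as controls by less, in 15 they moved the same way by more, and in 87 the signs were opposite. The count is sensitive to single arrays. It was 1445 without E18.5 control replicate 3, with all 678 among them, 939 and 933 without E18.5 mutant replicates 3 and 5, 393 without E18.5 control replicate 5, and 403 with embryo sex in the fit, of which 320 were shared.

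**Figure D1:**
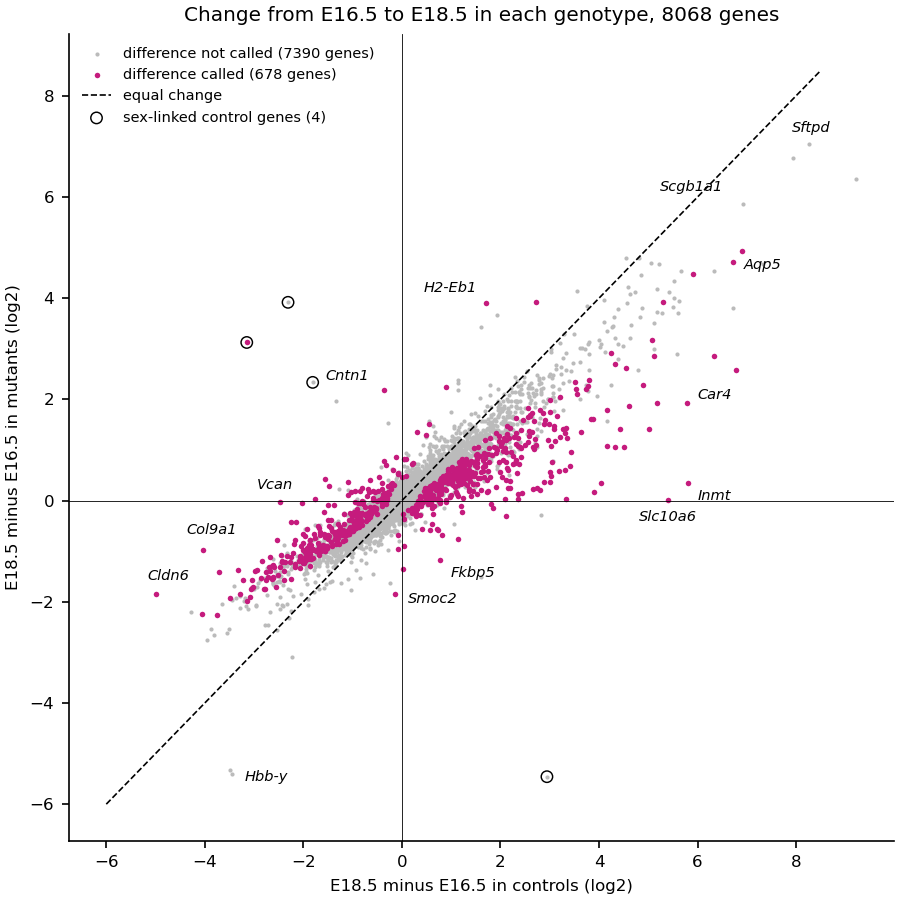
Change from E16.5 to E18.5 of 8068 genes, with controls on the horizontal and mutants on the vertical axis (both log2). Pink points are the 678 genes whose 2 changes differ, grey points the others, open circles 4 sex-linked genes, and the dashed line marks equal change. Most pink points lie between the dashed line and the horizontal axis, where the mutant change has the sign of the control change and is smaller.

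Among the genes with the largest rises in mutants, Sftpd, a surfactant collectin, rose by 7.04, Hc, which encodes complement component C5, by 6.76, and Chil1, a chitinase-like protein, by 6.35. Scgb1a1, the secretoglobin of club cells, rose by 5.87 and Scd1, which desaturates fatty acids, by 4.94. The interferon-induced genes Rsad2 (4.80), Usp18 (4.19) and Oasl2 (4.12), the pulmonary resistin-like gene Retnla (4.54), the mesothelin gene Msln (4.54) and the neutrophil calgranulin S100a9 (4.45) rose too. Hc, Chil1, Rsad2, Usp18, Oasl2 and S100a9 were dim at E16.5, so the floor of the values limits their rises. In each of these genes all 5 E18.5 mutants lay above all 5 E16.5 mutants, as was the case, in either direction, for 42.4% of all genes, and for 51.2% in controls.

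The largest falls were in the embryonic globins. Hbb-y, an embryonic beta-type globin made by primitive red cells, read 13.47, 13.36, 11.79, 12.89 and 11.70 in E16.5 mutants and 8.84, 7.20, 5.76, 7.28 and 7.09 in E18.5 mutants. The groups stood far apart, and the gene fell by 5.41 (SE 0.66, adjusted p = 2.50e-06). Controls fell by 3.45, and the difference of -1.96 had an interval of -3.92 to 0.00 and was not called (adjusted p = 0.202). Hba-x, the embryonic alpha-type globin, fell by 5.33. Of 18 other erythroid genes on the array 11 were too dim to test. The 7 tested did not move as a group: 1 rose, Alas2, the erythroid enzyme that starts haem synthesis (0.53), and the median was 0.0071. The call of Alas2 was lost in 2 of the 20 fits that left out 1 array. Large falls were also found in genes of dividing cells, with Exo1, a DNA repair exonuclease, at -2.66, Ccne1, cyclin E1, at -2.55 and Mybl2, a transcription factor of proliferating cells, at -2.45. Cartilage collagen genes followed, with Col11a1 at -2.47 and Col9a3 at -2.20.

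Type II cell and surfactant genes rose in mutants. Of 15 tested, 14 rose, with a median change of 2.23 against 0.00086 over all genes, and 28.7% of all genes rose. Controls had 14 of 15 higher and a median of 2.56. Sftpd read 3.53, 3.94, 3.90, 4.49 and 4.42 in E16.5 mutants and 10.80, 10.67, 12.13, 9.68 and 12.19 in E18.5 mutants. The stages were separated by more than 5 units on the log2 scale, with replicate 4 lowest at E18.5 (change 7.04, SE 0.47, adjusted p = 9.01e-09). Sftpb, the surfactant protein needed to spread the lipid film, read 8.54, 7.86, 9.42, 9.30 and 9.71 and then 12.34, 11.63, 12.44, 11.62 and 12.34. Its rise of 3.10 (SE 0.31) stood beside 3.20 in controls, and the difference of -0.10 had an interval of -1.0 to 0.81.

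The phosphate transporter Slc34a2 rose by 4.69, Sftpa1 by 3.96, the aspartic protease Napsa, which processes surfactant proteins, by 3.85, the lipid transporter of lamellar bodies Abca3 by 2.22 and the surfactant phospholipid enzyme Lpcat1 by 1.57. Sftpc, already bright at E16.5, rose by 0.37. Etv5, a transcription factor downstream of FGF in the epithelium, was the member that was not called (0.27). For 0 of the 15 genes was the difference between mutants and controls called, against 8.4% of all genes, although Sftpd (-1.22, interval -2.62 to 0.19) and Lyz2, the lysozyme of type II cells and macrophages (-1.21), had smaller rises in mutants. Sftpd was called without E16.5 control replicate 5 (-1.70, adjusted p = 0.0457). These intervals allow sizeable differences in single genes. With only female mutants, 14 members were still called higher.

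Airway genes rose as well. Of 11 club cell genes 10 rose, where 28.7% of all genes rose, with a median of 3.10 in mutants and 4.33 in controls. Scgb1a1 read 6.81, 7.63, 7.35, 7.91 and 8.62 at E16.5 and 13.11, 13.28, 14.45, 12.70 and 14.12 at E18.5 in mutants, with no overlap (change 5.87, SE 0.45, adjusted p = 3.09e-08). Carbonyl reductase Cbr2 rose by 4.68, haptoglobin (Hp) by 4.09 and the antibacterial lectin Reg3g by 3.81. Cyp4b1, a monooxygenase, rose by 0.71 against 2.25 in controls, which was the single called difference in the list (-1.53), and Krt15, a keratin, was at -0.28 in mutants, uncalled, against 2.82 in controls. The difference in the list was called for 4 members without E18.5 control replicate 3, and for 0 with sex in the fit. The rise of Cyp4b1 lost its call without any of 4 single arrays.

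Of 9 ciliated cell genes 8 rose, where 28.7% of all genes rose, with a median of 1.18 against 1.25 in controls. Of the 9, 0 had a called difference in the main setting, against 8.4% of all genes, or without any single array. Tppp3, a microtubule-associated protein, read 8.42, 7.90, 8.65, 8.78 and 9.01 and then 10.54, 10.48, 10.92, 10.48 and 10.94. The stages did not overlap (change 2.12, SE 0.17), and the difference from controls of -0.45 had an interval of -0.94 to 0.04. Lrrc23, a radial spoke protein, rose by 2.44 and Rsph1, another, by 2.10. In female mutants alone 4 of the 9 were called.

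Type I cell genes also rose in the mutants, yet here the shortfall against controls was called for several members. Of 18 tested, 17 rose and 1 fell, against 28.7% and 27.6% of all genes, with a median of 1.29 in mutants and 2.23 in controls. The difference was called lower for 7 members and higher for 1, where 4.78% and 3.62% of all genes were called. It was lower for 12 without E18.5 control replicate 3 and for 4 with sex in the fit. Aqp5, the water channel of type I cells, read 2.28, 2.34, 2.41, 2.36 and 2.38 in E16.5 mutants, near the floor, and 6.66, 6.81, 8.11, 5.86 and 7.88 in E18.5 mutants. Its rise of 4.71 (SE 0.33) was smaller than the 6.72 of controls by 2.02 (SE 0.46, adjusted p = 0.0126). Col4a3, a collagen of the alveolar basement membrane, read 2.04, 1.89, 1.94, 1.94 and 2.33 and then 4.64, 2.64, 5.41, 3.81 and 5.07. Replicate 2 stayed dim at E18.5, and the rise of 2.28 stood against 4.89 in controls (difference -2.61, SE 0.61, adjusted p = 0.0135). Both genes were dim at E16.5 in both genotypes.

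The podoplanin gene Pdpn rose by 0.65 against 1.26 (difference -0.61), Vegfa, the endothelial growth factor, by 1.23 against 2.35 (-1.12) and the calcium-binding S100a6 by 0.97 against 2.05 (-1.08). Members of the list are not all particular to type I cells, as Pdpn is also in the lymphatic endothelium list and Vegfa in the hypoxia list. Igfbp2, which binds insulin-like growth factors, fell by 1.20 in mutants and by 2.84 in controls, the called difference in the other direction. Ager, the receptor for advanced glycation products, rose by 3.01 against 3.65 and Hopx by 2.11 against 2.40, with no call for the difference. With sex in the fit the differences of Vegfa and Igfbp2 were no longer called, and that of Igfbp2 was lost without any of 13 single arrays.

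Genes of fluid clearance and ion transport, which dry the air spaces at birth, rose in 20 of 21 cases, where 28.7% of all genes rose, with a median of 1.04 in mutants and 1.27 in controls. The difference was called lower for 5, against 4.78% of all genes, for 2 with sex in the fit and for 3 to 6 without 1 array. Scnn1a, the alpha subunit of the epithelial sodium channel, read 1.88, 1.93, 2.18, 2.16 and 2.61 in E16.5 mutants and 3.75, 3.14, 5.59, 3.15 and 4.51 in E18.5 mutants. E18.5 replicates 1, 2 and 4 stayed under 4. The rise of 1.88 (SE 0.41) was smaller than the 4.60 of controls by 2.72 (SE 0.58, adjusted p = 0.00907). Its gamma subunit Scnn1g rose by 2.04 against 3.18, without a call for the difference, and the water channel Aqp1 rose by 1.99 against 3.0, with a called difference that was lost without any of 13 single arrays.

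Car4, a carbonic anhydrase of alveolar capillaries, split the E18.5 mutants. It read 2.41, 2.42, 2.40, 2.50 and 2.43 at E16.5, and at E18.5 it read 3.31, 2.84, 6.44, 2.83 and 6.35. Replicates 3 and 5, the 2 that stood farthest along the stage axis, were above 6 and replicates 1, 2 and 4 were dim. The rise of 1.92 (SE 0.72, adjusted p = 0.0296) was not called without replicate 3 (1.40, adjusted p = 0.0998) or replicate 5 (1.42, adjusted p = 0.0981), or with sex in the fit (1.70, adjusted p = 0.0931). Controls rose by 5.78, and the difference of -3.85 (SE 1.02, adjusted p = 0.0266) lost its call in 6 of the 20 fits that left out 1 array, with values of -4.56 to -3.47.

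**Figure D2:**
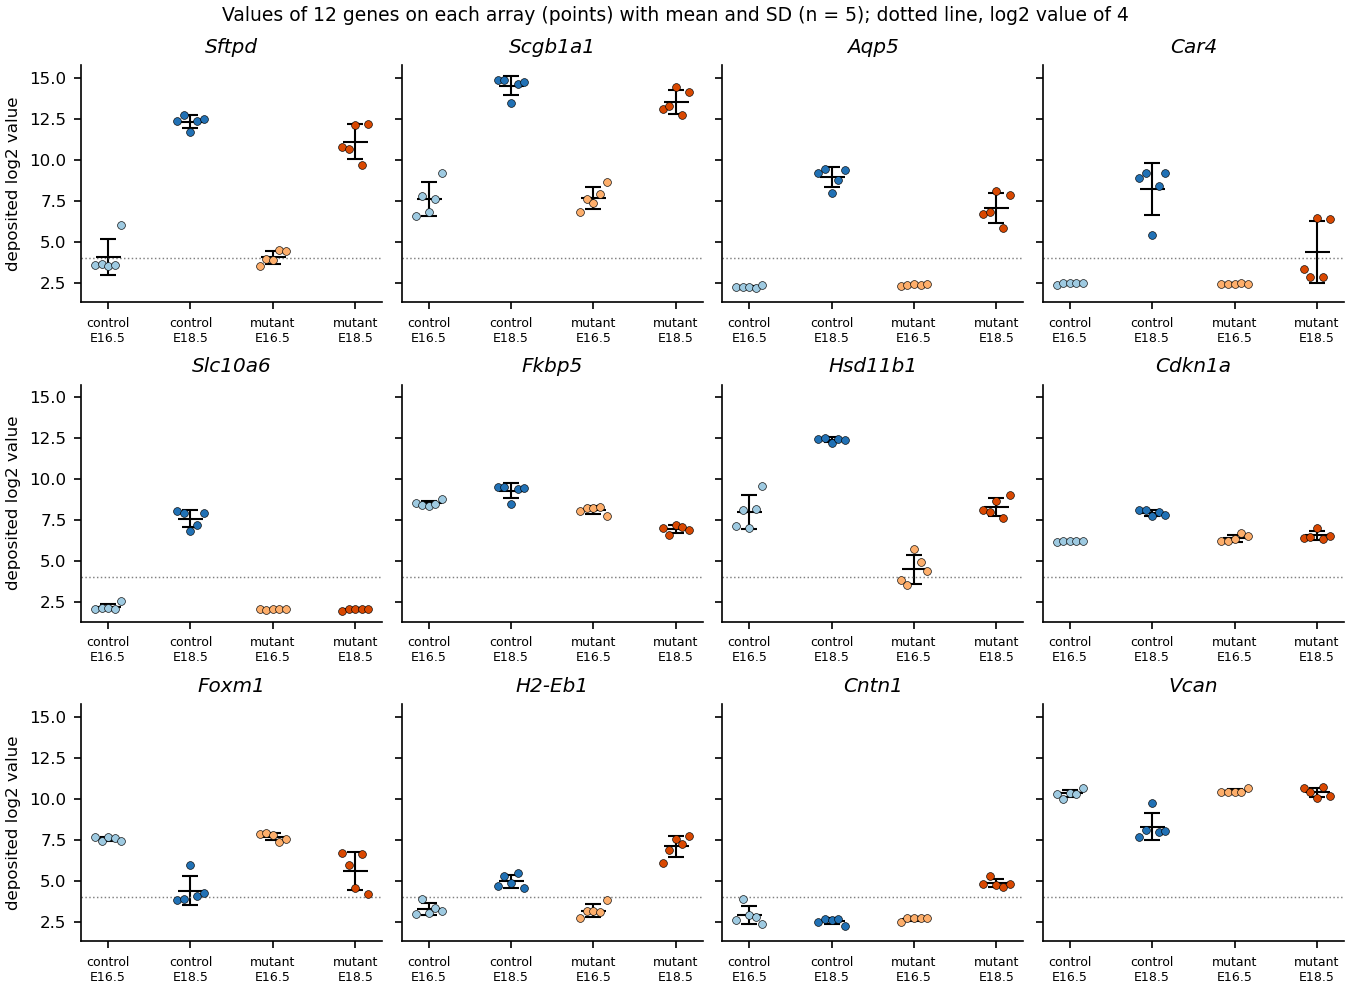
Deposited log2 values of 12 genes on each of the 20 arrays (points, 5 per group), with the group mean and SD. The dotted line marks a log2 value of 4, under which values are called dim. Sftpd and Scgb1a1 climb in both genotypes, Slc10a6 stays near 2 in all mutants, Fkbp5 falls in mutants and rises in controls, and Cntn1 rises in mutants alone.

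Transcripts of cell division genes fell in mutants and in controls. All 38 mitosis genes fell in mutants, with a median of -1.11, where 27.6% of all genes fell. In controls all 38 fell too, with a median of -2.25. The list mean was 9.71 to 10.21 over the E16.5 mutants. At E18.5 it was 9.46, 9.36, 8.36, 9.22 and 8.19, with replicates 3 and 5 lowest. The 5 E18.5 controls had means of 7.59 to 7.66 except for replicate 3, at 8.89. The difference was called higher for 14 of the 38, that is, a smaller fall in mutants, where 3.62% of all genes were called. This count depends on the arrays: it was 36 without E18.5 control replicate 3, 2 with sex in the fit, 10 with the replicate number as a block, and 3 to 36 over the fits without 1 array. In female mutants alone 34 of the 38 were called lower, and in the fits without 1 array 36 to 38.

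Foxm1, a transcription factor that drives mitotic genes, read 7.87, 7.89, 7.76, 7.35 and 7.57 in E16.5 mutants and 6.71, 5.93, 4.58, 6.64 and 4.18 in E18.5 mutants. The stages did not overlap and the E18.5 arrays spread over more than 2 units. It fell by 2.08 (SE 0.44, adjusted p = 0.000572) against 3.17 in controls, a difference of 1.08 that was not called (interval -0.22 to 2.39). The spindle checkpoint kinase Ttk fell by 1.74 against 3.01, the phosphatase Cdc25c by 1.62 against 2.62 and the kinase Aurkb by 1.60 against 2.47, with no called difference. The kinetochore motor Cenpe fell by 1.39 against 2.98 (difference 1.59) and the spindle protein Psrc1 by 1.42 against 3.72 (difference 2.30), and both differences were called. The proliferation marker Mki67 fell by 0.73 against 1.77, with a called difference that was lost without any of 16 single arrays. The difference of Psrc1 was not called with sex in the fit.

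Promoters of the mitosis genes carry the letters that mark this group. The 3 windows printed are of the genes that fell furthest among those with both motifs on the chromosomes considered. Not every chromosome was considered in this choice. RefSeq promoter windows (GRCm38.p6) of 300 bases, from 250 before to 50 after the start site, were found for 32 of the 38 genes, in 35 windows. The cell cycle homology region, TTTGAA on either strand, was in 74.3% of them, against 17.9% of 32851 windows of all genes and 11.9% of windows of the genes tested. The CCAAT box, CCAAT on either strand, was in 80% against 37.4%, and both together in 65.7% against 6.95%. The windows below run from 250 bases before to 30 after the start site and all lie on the plus strand, Ttk at chr9:83834439-83834718, Ncapg, a condensin subunit, at chr5:45669675-45669954 and Kif4, a chromosome motor, at chrX:100625815-100626094. Capitals mark both motifs, on either strand. A match is a description of letters and not a shown binding site.
Ttk: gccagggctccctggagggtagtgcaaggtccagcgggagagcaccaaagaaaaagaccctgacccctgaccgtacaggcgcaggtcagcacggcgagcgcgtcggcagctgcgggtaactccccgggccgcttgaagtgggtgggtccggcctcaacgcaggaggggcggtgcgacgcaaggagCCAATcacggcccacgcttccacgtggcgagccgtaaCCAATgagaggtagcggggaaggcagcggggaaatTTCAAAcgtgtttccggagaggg
Ncapg: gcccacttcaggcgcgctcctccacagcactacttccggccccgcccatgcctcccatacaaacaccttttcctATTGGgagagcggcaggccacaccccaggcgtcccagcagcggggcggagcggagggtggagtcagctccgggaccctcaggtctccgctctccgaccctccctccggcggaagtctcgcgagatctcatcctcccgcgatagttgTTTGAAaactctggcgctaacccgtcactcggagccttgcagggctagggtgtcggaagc
Kif4: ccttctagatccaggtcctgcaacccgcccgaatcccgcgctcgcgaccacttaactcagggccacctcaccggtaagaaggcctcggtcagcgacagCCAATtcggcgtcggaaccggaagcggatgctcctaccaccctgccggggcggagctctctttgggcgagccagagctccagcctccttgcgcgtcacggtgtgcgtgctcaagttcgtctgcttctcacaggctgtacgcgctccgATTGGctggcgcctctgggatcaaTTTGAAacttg

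Ncapg fell by 1.41 in mutants and 2.77 in controls, and Kif4 by 1.32 and 2.24. The TTTGAA match of Ttk begins 8 bases and that of Kif4 20 bases after the start site, and that of Ncapg 30 bases before it.

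All 34 DNA replication genes fell in mutants, where 27.6% of all genes fell, with a median of -1.20 against -1.99 in controls. In all 34 the E18.5 mutants lay below the E16.5 mutants, and 42.4% of all genes had no overlap in either direction. The difference was called higher for 22, where 3.62% of all genes were called. It was called higher for 31 without E18.5 control replicate 3 and for 5 with sex in the fit. Ccne1 read 7.91, 8.08, 7.60, 7.81 and 7.06 and then 5.30, 5.16, 5.05, 5.88 and 4.34 (change -2.55, SE 0.22, adjusted p = 9.06e-08). Controls fell by 3.51, and the difference of 0.96 (interval 0.30 to 1.62) had an adjusted p of 0.0641. It was called without any of 4 single arrays, E16.5 control replicate 5, E18.5 control replicate 3, E16.5 mutant replicate 2 or E18.5 mutant replicate 5 (adjusted p 0.0109 to 0.0495). The initiator Mcm10 fell by 2.26 against 3.75, the origin licensing factor Cdc6 by 2.08 against 2.96 and the helicase subunits Mcm3 and Mcm4 by 1.09 against 2.07 and 1.11 against 1.89. The differences of Mcm3 (0.98) and Mcm4 (0.77) were called. That of Mcm10 (1.49) was called and was lost without any of 15 single arrays.

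An E2F element, TTTCCCGC or TTTGGCGC on either strand, was in 25.7% of 35 windows of 30 replication genes, against 1.56% of all windows and 3.03% of windows of the genes tested. The windows shown are of Cdc6 at chr11:98907901-98908180 and of Mcm5, another helicase subunit, at chr8:75109259-75109538 (both plus strand, GRCm38.p6, capitals for the E2F element). Among replication genes with the element, on the chromosomes considered, these fell furthest. Mcm5, named for its promoter after the values were seen, fell by 1.47 against 2.52.
Cdc6: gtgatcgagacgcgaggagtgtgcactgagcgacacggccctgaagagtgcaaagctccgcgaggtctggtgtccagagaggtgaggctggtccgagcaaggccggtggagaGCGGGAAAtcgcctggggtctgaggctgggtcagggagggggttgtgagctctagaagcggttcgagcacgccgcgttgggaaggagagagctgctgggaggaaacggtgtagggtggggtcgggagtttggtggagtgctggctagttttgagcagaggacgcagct
Mcm5: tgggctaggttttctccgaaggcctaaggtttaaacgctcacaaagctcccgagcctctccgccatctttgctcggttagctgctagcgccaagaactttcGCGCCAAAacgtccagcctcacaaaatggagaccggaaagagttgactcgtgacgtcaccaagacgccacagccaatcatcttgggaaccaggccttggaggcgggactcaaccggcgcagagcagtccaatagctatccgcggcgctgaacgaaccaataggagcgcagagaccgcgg

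Genes that hold cells in arrest rose in most cases, with 12 higher and 2 lower of 19, against 28.7% and 27.6% of all genes, and a median of 0.39 against 0.58 in controls. Cdkn2b, which encodes the kinase inhibitor p15, read 3.33, 3.37, 3.95, 4.16 and 4.17 in E16.5 mutants and 7.23, 7.50, 8.99, 6.97 and 8.30 in E18.5 mutants, a rise of 4.0 (SE 0.41, adjusted p = 4.46e-07). Controls rose by 5.52 and the difference of -1.51 (interval -2.73 to -0.30) was not called (adjusted p = 0.110). It was called without E16.5 control replicate 5 (-1.92, adjusted p = 0.0175) or E18.5 mutant replicate 3 (-1.81, adjusted p = 0.0387). Cdkn1a, which encodes the inhibitor p21, took another course. It read 6.21, 6.21, 6.34, 6.70 and 6.53 and then 6.42, 6.47, 7.04, 6.36 and 6.54, with overlapping stages and an uncalled change of 0.17. Controls rose by 1.73 (SE 0.12), and the difference of -1.57 (SE 0.17, adjusted p = 1.36e-05) was called.

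**Figure D3:**
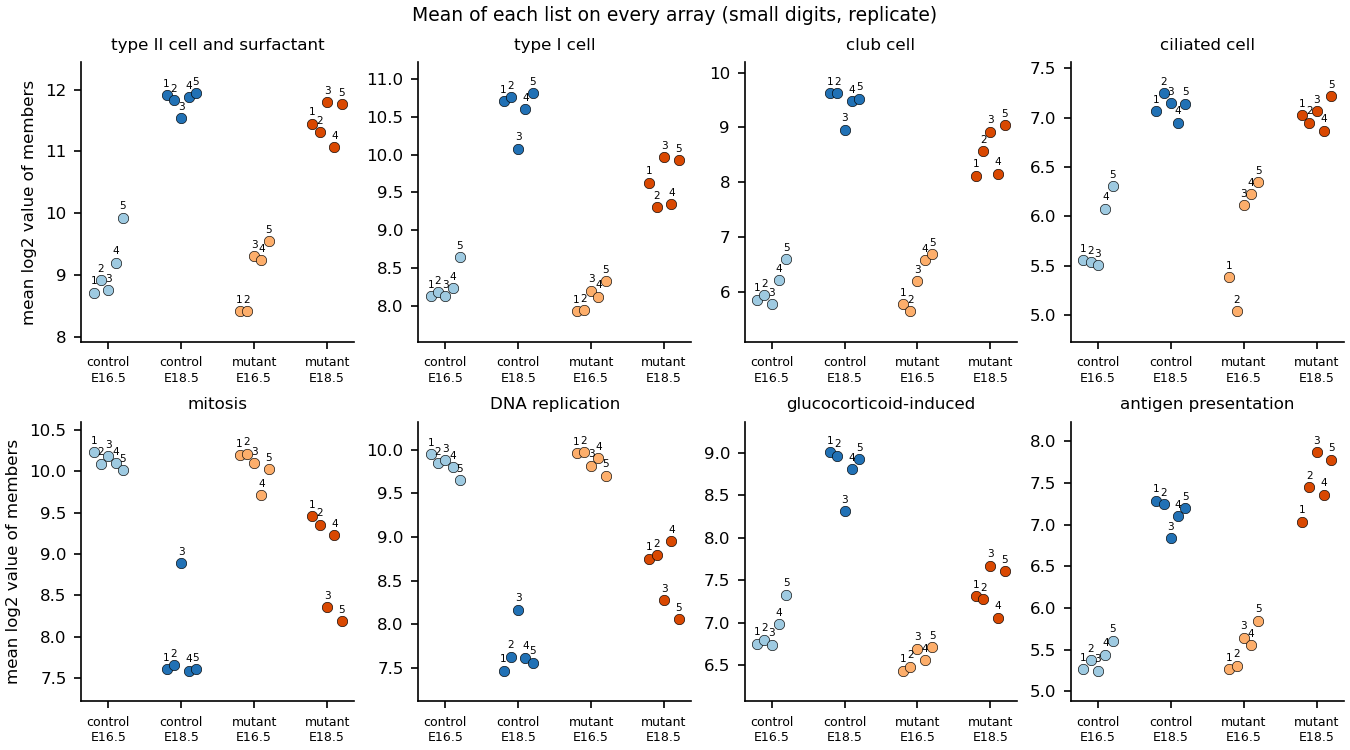
Mean log2 value of the members of 8 gene lists on each of the 20 arrays, with the replicate number beside each point and a separate vertical scale for each list. E18.5 mutants approach E18.5 controls in the type II and ciliated lists and lie apart from most of them in the type I, mitosis, DNA replication and glucocorticoid-induced lists. E18.5 control replicate 3 lies apart from the other controls in the mitosis list.

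Genes known to be induced by glucocorticoid rose in many cases, by less than in controls. Of 30 tested, 19 rose and 1 fell in mutants, where 28.7% and 27.6% of all genes did, with a median of 0.75. In controls 26 rose and 1 fell, against 35.3% and 35.5% of all genes, with a median of 1.76. The difference was called lower for 13 members and higher for 1, where 4.78% and 3.62% of all genes were called. It was lower for 18 without E18.5 control replicate 3 and for 9 with sex in the fit. Slc10a6, a steroid sulfate transporter, read 2.07, 2.03, 2.09, 2.05 and 2.05 in E16.5 mutants and 1.96, 2.07, 2.10, 2.09 and 2.10 in E18.5 mutants. All 10 mutant arrays lay near the floor, while controls rose by 5.41 (SE 0.17). The difference was -5.40 (SE 0.24, adjusted p = 4.56e-11).

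Fkbp5, a co-chaperone of the receptor and one of its standard targets, moved the other way. It read 8.07, 8.27, 8.22, 8.30 and 7.76 and then 7.03, 6.57, 7.18, 7.08 and 6.91, with no overlap, and fell by 1.17 (SE 0.18, adjusted p = 2.21e-05). Controls rose by 0.77 (difference -1.94, SE 0.25, adjusted p = 8.86e-05). The kinase Pdk4, which turns off pyruvate oxidation, was at 0.37 against 3.0 in controls (difference -2.64), the transcription factor Zbtb16 at 0.26 against 2.74 (-2.49) and transglutaminase Tgm2 at 0.05 against 1.24 (-1.19). The mutant changes of these 3 genes were not called and their differences were, although the rise of Pdk4 was called with sex in the fit. Zbtb16's difference was not called with sex in the fit. Tsc22d3, also called GILZ, rose by 0.58 against 1.64, the phosphatase Dusp1 by 0.80 against 1.65 and the transcription factors Klf9 and Cebpd by 1.52 against 2.99 and 0.64 against 2.13, with all 4 differences called. That of Tsc22d3 was not called with sex in the fit.

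Other members of this list rose in both genotypes, without a called difference. The metallothioneins Mt1 and Mt2 rose by 2.19 and 2.29 in mutants and by 1.96 and 1.79 in controls. Errfi1, an inhibitor of EGF receptor signalling, rose by 0.85 and 1.18 and the transcription factor Cebpb by 0.73 and 0.62. The other Errfi1 probe set changed by 0.61 in mutants and 1.185 in controls. Sgk1, a kinase that keeps sodium channels at the membrane, read 8.97, 9.42, 10.26, 10.34 and 10.37 in E16.5 mutants and 10.66, 10.81, 10.99, 10.79 and 11.13 in E18.5 mutants. Replicates 1 and 2 were lowest at E16.5, and the stages did not overlap. The gene rose by 1.00 (SE 0.30, adjusted p = 0.00842) in mutants and 0.75 (adjusted p = 0.0324) in controls, and the difference of 0.25 had an interval of -0.64 to 1.15. In female mutants alone the rise of 0.93 was not called (adjusted p = 0.100).

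Sgk1 was also the list's member with a receptor motif in its promoter. The palindrome by which the receptor is known to bind, AGAACA, any 3 bases and TGTTCT, which reads the same on both strands, was in 1 of 39 windows of 26 list members and in 3 of 32851 windows of all genes, a search that leaves out imperfect and distant sites. The window of Sgk1 at chr10:21993640-21993919 (plus strand, GRCm38.p6) carries it from position -189 relative to the start site, in capitals.
Sgk1: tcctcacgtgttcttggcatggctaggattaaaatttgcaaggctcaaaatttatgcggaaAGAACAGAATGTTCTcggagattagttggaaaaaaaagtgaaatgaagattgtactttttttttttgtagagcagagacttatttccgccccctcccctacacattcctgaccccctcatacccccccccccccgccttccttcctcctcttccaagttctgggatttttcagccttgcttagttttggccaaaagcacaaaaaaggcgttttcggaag

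Hsd11b1, the enzyme that regenerates active glucocorticoid inside cells, rose steeply in mutants from a low start. It read 3.88, 3.54, 5.76, 4.97 and 4.37 at E16.5 and 8.13, 8.0, 8.66, 7.62 and 9.03 at E18.5 in mutants, a rise of 3.79 (SE 0.43, adjusted p = 1.23e-06). Controls started at 8.02 ± 1.03 and reached 12.41 ± 0.14, a rise of 4.39. The difference of -0.61 had an interval of -1.89 to 0.67. E18.5 mutants thus stood near the level of E16.5 controls, at 8.29 ± 0.56. H6pd, which supplies the cofactor of this enzyme, rose by 1.37 against 1.47, and the reductase Akr1c14 by 3.71 against 5.61, without a call for the difference (-1.90).

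Enzymes that handle foreign compounds rose in 16 of 22 cases and fell in 2, where 28.7% and 27.6% of all genes did. Their median was 1.08 against 2.09 in controls. Of their differences 9 were called, all lower, where 4.78% of all genes were called lower. Inmt, a methyltransferase of amines, read 2.31, 2.36, 2.37, 2.37 and 2.38 in E16.5 mutants and 2.30, 2.39, 3.36, 2.39 and 3.09 in E18.5 mutants. It stayed dim on all 10 arrays, while controls rose by 5.80 (difference -5.45, SE 0.90, adjusted p = 0.00110). The sulfotransferase Sult1a1 rose by 3.72 against 5.18 and the monooxygenase Cyp2f2 of club cells by 3.10 against 4.04, without called differences. With sex in the fit 4 of the list's differences were called.

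Several other genes that rose late in controls stayed near the floor in mutants. Lims2, an adaptor at focal adhesions, changed by 0.16 in mutants and 3.90 in controls, Slc7a10, an amino acid transporter, by 0.34 and 4.03, and Ms4a4d by 0.03 and 3.32. The mutant means of all 3 were dim at both stages, and all 3 differences were called in each of the 20 fits that left out 1 array. Dpep1, a dipeptidase, rose by 2.58 against 6.78, xanthine dehydrogenase Xdh by 1.41 against 5.01 and the matrix protein Spon1 by 1.93 against 5.17, each with a called difference. The bacteriostatic lipocalin Lcn2 rose by 2.85 against 6.32, with a difference (-3.48) that lost its call without any of 16 single arrays. Xdh's rise in mutants lost its call in 1 of the 20 fits.

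Elastic fibre genes, which mesenchymal cells supply, rose in 8 of 17 cases and fell in 1, where 28.7% and 27.6% of all genes did, with a median of 0.83 in mutants and 0.85 in controls. Eln, which encodes elastin, read 10.54, 10.65, 10.81, 10.80 and 10.76 in E16.5 mutants and 11.51, 11.76, 11.76, 11.56 and 11.93 in E18.5 mutants. The groups were well apart, with a rise of 0.99 (SE 0.13, adjusted p = 4.66e-06) against 1.92 in controls (difference -0.93, SE 0.18, adjusted p = 0.00502). Fbn2, the fetal fibrillin, did not change in a way that was called in mutants (0.03) and fell by 1.77 in controls (difference 1.81, SE 0.34, adjusted p = 0.00347). The crosslinking enzyme Loxl1 rose by 1.11 against 1.18, the microfibril protein Mfap4 by 1.51 against 1.38 and the latent TGF-beta binding proteins Ltbp2 and Ltbp3 by 2.08 against 1.78 and 0.93 against 0.85. The differences of these 4 genes were not called. Fbln5, which guides elastic fibre assembly, rose by 1.32 against 1.92, with a called difference that was lost without any of 16 single arrays.

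Interstitial matrix genes moved both ways, with 10 higher and 3 lower of 29, against 28.7% and 27.6% of all genes, and a median of 0.18 against 0.10 in controls. Vcan, which encodes the proteoglycan versican of loose fetal stroma, read 10.39, 10.43, 10.39, 10.38 and 10.65 in E16.5 mutants and 10.64, 10.42, 10.03, 10.69 and 10.18 in E18.5 mutants. The stages overlapped, with an uncalled change of -0.05, while controls fell by 2.02 (difference 1.97, SE 0.38, adjusted p = 0.00415). Its other 2 probe sets changed by -0.46 and -0.16 in mutants and by -3.07 and -2.80 in controls. Tnc, tenascin C, read 9.0, 8.99, 9.18, 9.15 and 9.53 and then 9.89, 9.97, 9.81, 10.24 and 10.26. It rose by 0.87 (SE 0.12) without overlap, against an uncalled -0.12 in controls (difference 0.99, SE 0.18, adjusted p = 0.00224). Fibronectin (Fn1) rose by 1.03 against 1.91 and Col6a3 by 1.10 against 1.25, and the hyaluronan synthase Has2 fell by 1.22 against 1.34, with no called difference.

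Basement membrane genes rose in 16 of 22 cases and fell in 1, against 28.7% and 27.6% of all genes, with medians of 0.74 and 0.72. The epithelial laminin chains Lama3, Lamb3 and Lama5 rose by 1.41, 1.31 and 1.26 in mutants and by 1.46, 1.27 and 1.35 in controls. Smoc2, a calcium-binding matrix protein, read 8.98, 8.95, 7.82, 8.04 and 7.90 and then 6.88, 6.83, 5.58, 6.24 and 6.89 in mutants. It fell by 1.85 (SE 0.30, adjusted p = 5.38e-05) without overlap, against an uncalled -0.13 in controls (difference -1.72, SE 0.43, adjusted p = 0.0195). Cartilage genes fell in 6 of 9 cases and rose in 1, against 27.6% and 28.7% of all genes, with medians of -0.99 and -1.92. Col9a1, a cartilage collagen chain, was at -0.99 in mutants, uncalled, against -4.04 in controls. That difference (3.05, adjusted p = 0.0135) was not called with sex in the fit. The other Col9a1 probe set changed by -1.17 in mutants and -1.29 in controls and does not show the difference. Col2a1 fell by 1.66 against 1.92.

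Contractile and mesenchymal identity genes had medians near 0. Of 16 smooth muscle genes 2 rose and 1 fell, where 28.7% and 27.6% of all genes did. Their median was -0.090, and 0 of their differences were called, against 8.4% of all genes. Of 23 mesenchymal transcription factors 5 rose and 5 fell (median -0.11), shares near or under those of all genes. Tcf21, a factor of lipofibroblasts, rose by 0.79 against 1.18. Of 10 pericyte genes 7 rose in mutants, and 5 rose and 1 fell in controls, with a median of 0.34 in each genotype. The count of 7 was 4 to 7 without 1 array and 2 in female mutants alone. Abcc9 and Rgs5 rose by 0.94 and 0.90 against uncalled changes of 0.08 and 0.13 in controls, although the differences of both were not called. Genes of triglyceride handling and lipofibroblasts rose in 13 of 15 cases (median 0.79 against 1.18), with the fatty acid transporter Cd36 at 3.46 against 4.28 and lipoprotein lipase (Lpl) at 0.65 against 1.52, the latter with a called difference (-0.87) that was not called with sex in the fit.

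Blood vessel genes rose in 22 of 29 cases, where 28.7% of all genes rose, with a median of 0.54 against 0.91 in controls. The difference was called lower for 6 and higher for 1, where 4.78% and 3.62% of all genes were called. It was lower for 10 without E18.5 control replicate 3 and for 3 with sex in the fit. The adhesion molecule Icam2 rose by 0.74 against 1.52 (difference -0.78) and Ramp2, a subunit of the adrenomedullin receptor, by 0.47 against 1.04 (-0.57). The gap junction gene Gja4 of arteries and Vwf, the von Willebrand factor, rose by 1.34 and 1.26 in mutants and by 1.25 and 1.37 in controls. Of 15 genes of prostanoid and other vasoactive pathways 10 rose and 1 fell, against 28.7% and 27.6% of all genes. The one that fell was Ptgis, prostacyclin synthase, which read 7.17, 7.24, 6.88, 6.81 and 6.62 and then 6.35, 6.25, 6.34, 5.74 and 6.22. It fell by 0.76 (SE 0.14, adjusted p = 0.000118) while controls rose by 1.14 (difference -1.90, SE 0.19, adjusted p = 1.11e-05).

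Macrophage genes rose in 14 of 15 cases, where 28.7% of all genes rose, with a median of 0.93 against 1.14. They had 0 called differences, against 8.4% of all genes, and Mpeg1, a pore-forming protein, rose by 2.14 against 2.83. Antigen presentation genes rose in 12 of 12 cases, with medians of 2.04 and 1.90. Here 3 members of class II rose further in mutants than in controls, where 3.62% of all genes had a higher called difference. H2-Eb1 read 2.73, 3.12, 3.12, 3.10 and 3.80 in E16.5 mutants, under 4 on every array, and 6.06, 6.85, 7.51, 7.25 and 7.75 in E18.5 mutants. It rose by 3.91 (SE 0.28, adjusted p = 1.37e-08) against 1.70 (difference 2.21, SE 0.39, adjusted p = 0.00232). H2-Aa rose by 3.92 against 2.72 and H2-Ab1 by 2.25 against 0.89. Their probe sets are of kinds that can also bind related genes, and their differences lost the call without any of 17 and 8 single arrays and with sex in the fit. Cd74, the class II invariant chain, rose by 4.14 against 3.56 without a called difference, and Psmb8, a subunit of the immunoproteasome, by 2.50 against 3.01.

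Signalling lists differed in their counts, where 28.7% of all genes rose and 27.6% fell. Among FGF genes 8 of 13 rose and 2 fell, among Notch genes 5 of 11 rose and 0 fell, among TGF-beta and BMP genes 9 of 21 rose and 1 fell, and among IGF genes 5 of 13 rose and 2 fell. Among 19 Wnt and R-spondin genes 6 rose and 5 fell, with the Wnt inhibitor Notum at 2.09 against 2.18 and the Wnt antagonist Sfrp1 at -1.63 against an uncalled -0.25 (difference not called). Rspo2, a Wnt agonist made by mesenchyme, read 7.36, 7.12, 7.09, 7.17 and 6.88 in E16.5 mutants and 7.91, 7.87, 7.26, 7.21 and 7.49 in E18.5 mutants. The stages overlapped and the change of 0.42 was not called (adjusted p = 0.193), though it was in a fit of the 10 mutant arrays alone (adjusted p = 0.0332). Controls fell by 1.56 (difference 1.99, SE 0.38, adjusted p = 0.00416). Bmp6 rose by 0.57 against 3.0 (difference -2.43) and Tgfb2 by 0.70 against an uncalled -0.33 (difference 1.02), both ligands of the TGF-beta family. The mutant means of Bmp6 were dim at both stages, at 2.22 and 2.79. Igfbp3, which binds insulin-like growth factors, was at -0.31, uncalled, against 2.11 (difference -2.41). In the hypoxia list, the vasodilator peptide gene Adm was at 0.23 against 2.67 (difference -2.44) and dim in mutants at both stages.

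Circadian clock genes rose in 12 of 14 cases, where 28.7% of all genes rose (median 0.89 against 1.25), with Per3 at 1.90 against 1.98. A lower difference was called for 1 of them, for 9 with array weights and for 6 without both control arrays that lay between the stages. Lysosome and lamellar body genes rose in 15 of 16 cases and fell in 1 (median 0.58 against 0.72), with 0 called differences, against 8.4% of all genes. The differences of its members lay between -0.49 and -0.0028. A lower difference was called for 3 with array weights, for 3 without both of those control arrays and for 1 with sex in the fit. Fatty acid and phospholipid genes rose in 13 of 17 cases and fell in 3 (median 0.69 against 0.89), and the difference was called lower for 2 and, with sex in the fit, for 0. Scd1 rose by 4.94 against 6.91, a difference (-1.97, adjusted p = 0.0480) that was lost without any of 16 single arrays. Cholesterol synthesis genes fell in 8 of 17 cases, where 27.6% of all genes fell, with a median of -0.23 against -0.20. Oxidative phosphorylation genes had a median of -0.083, with 2 higher and 14 lower of 62, where 28.7% and 27.6% of all genes were called. Far fewer rose than among all genes, while the share that fell was nearer that of all genes. The number lower was 20 with sex in the fit and 3 in female mutants alone. Cytosolic ribosomal protein genes had 2 higher and 3 lower of 41, both well under the shares of all genes.

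**Figure D4:**
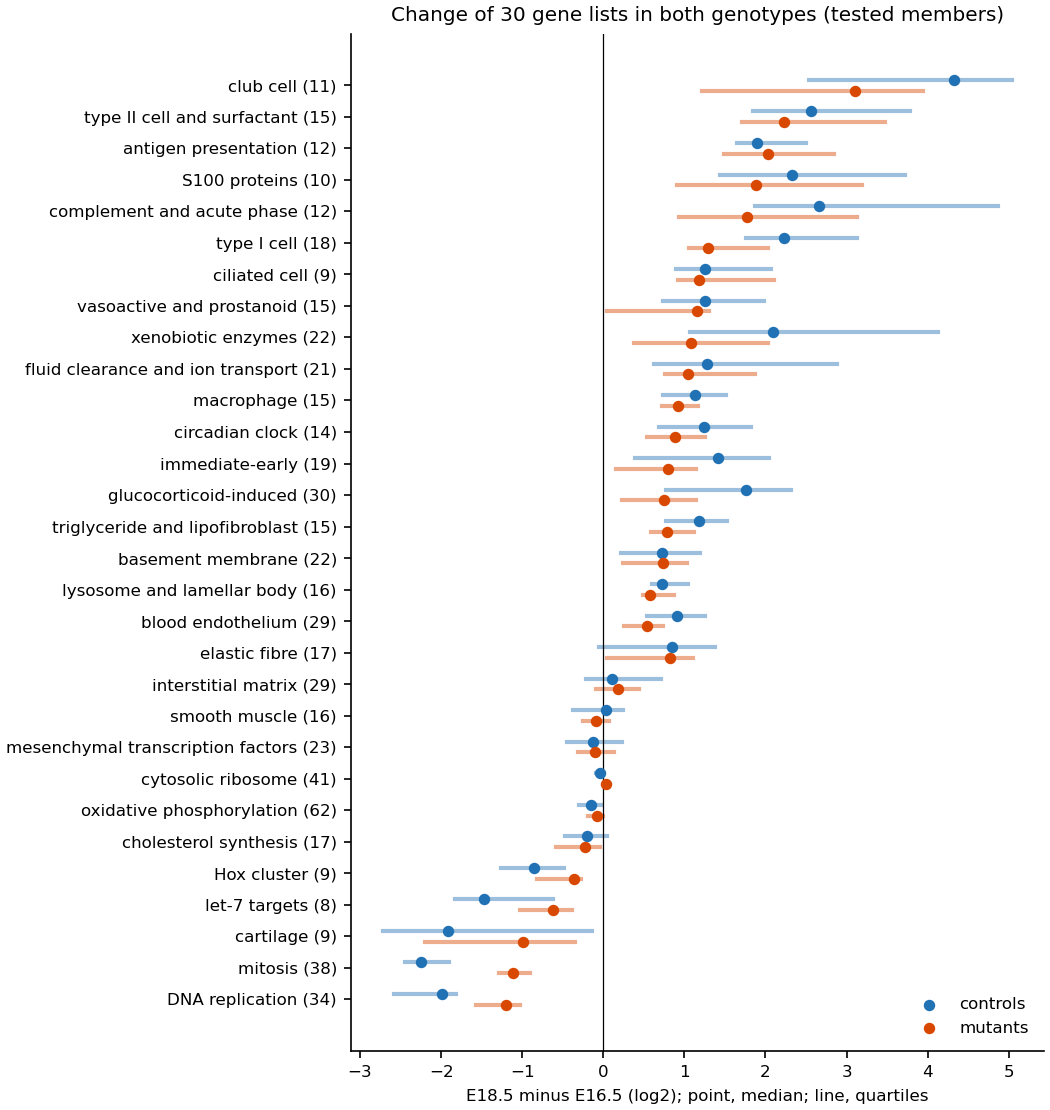
Median change from E16.5 to E18.5 (log2, horizontal axis) of the tested members of 30 gene lists, with the number of members in brackets. Orange points are mutants, blue points controls and lines run from the lower to the upper quartile of the members. Medians lie close together in the ciliated, basement membrane and elastic fibre lists, and the mutant median is nearer 0 in the mitosis, DNA replication, type I and glucocorticoid-induced lists.

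Of 19 distal tip and epithelial lineage genes 8 rose and 5 fell in mutants, where 28.7% and 27.6% of all genes did, and 6 rose and 7 fell in controls. A higher difference was called for 4, where 3.62% of all genes were called, and for 2 with sex in the fit. Cldn6, an embryonic claudin, read 9.06, 9.51, 9.18, 8.83 and 8.87 in E16.5 mutants and 7.76, 7.64, 6.12, 8.21 and 6.45 in E18.5 mutants, with replicates 3 and 5 lowest. It fell by 1.85 (SE 0.50, adjusted p = 0.00395) against 5.0 in controls (difference 3.15, SE 0.70, adjusted p = 0.0117). The difference was not called with sex in the fit (2.88, adjusted p = 0.0559). Sox9, a factor of distal tip cells and cartilage, fell by 0.69 against 1.98, with a called difference (1.28), and Foxp2 was at 0.12, uncalled, against -1.10 (difference 1.21). The call of Sox9 was lost in 2 of the 20 fits without 1 array, both for its fall and for the difference, and the fall was not called with sex in the fit. Among genes of other lists, the growth factor midkine (Mdk) fell by 0.77 against 2.53 (difference 1.76). Hmga2, a chromatin protein of fetal cells, fell by 2.06 against 1.91, without a called difference.

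Some genes were called in mutants and not in controls, 324 of 8068. For 22 of these 324 the difference was called too, where 8.4% of all genes had a called difference. Cntn1, a cell adhesion protein of the nervous system, read 2.46, 2.70, 2.71, 2.73 and 2.74 in E16.5 mutants and 4.81, 5.26, 4.76, 4.61 and 4.82 in E18.5 mutants. All 5 E18.5 mutants were above 4 and all 5 E16.5 mutants below it, a rise of 2.18 (SE 0.19, adjusted p = 9.30e-08), while controls changed by an uncalled -0.37 (difference 2.56, SE 0.27, adjusted p = 1.35e-05). Its other probe set stayed dim and changed by 0.60 in mutants and -0.042 in controls. Cd44, the hyaluronan receptor, read 9.90, 9.98, 10.06, 9.90 and 10.13 and then 10.85, 10.88, 10.85, 10.84 and 10.69, a rise of 0.83 (SE 0.06) against an uncalled 0.08 (difference 0.75, SE 0.09, adjusted p = 3.94e-05). The adhesion molecule Vcam1 (0.54) and the collagen-binding receptor Antxr1 (0.48) rose in mutants and were not called in controls. The other Vcam1 probe set changed by -0.0029 in mutants and -0.57 in controls. Falls called in mutants and not in controls were found in Gap43, a growth cone protein (-1.35), the ephrin receptor Epha3 (-0.96) and hexokinase 2 (Hk2, -0.91). The other 2 probe sets of Epha3 changed by -1.65 and -1.60 in mutants and also by -0.66 and -0.87 in controls. Hk2's difference was not called with sex in the fit.

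In 19 of the 8068 genes both genotypes were called with opposite signs. Besides Fkbp5 and Ptgis, the lysophosphatidic acid receptor Lpar1 fell by 0.57 in mutants and rose by 0.71 in controls, and the matrix protein Matn2 fell by 0.59 and rose by 0.74. Irs1, the adaptor of the insulin receptor, rose by 0.22 and fell by 0.41, and the RNA-binding protein Khdrbs3 rose by 0.40 and fell by 0.64. Gpm6a, a membrane glycoprotein in the mesothelium list, fell by 0.56 and rose by 0.40. Nrcam, a neural adhesion molecule, rose by 0.47 in mutants and fell by 0.47 in controls.

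Markers of other tissues and rarer cells differed in level. Of 7 adipocyte markers on the array 0 reached the level needed for testing. In skeletal muscle 0 of 3 tested markers were called in mutants, and in liver 1 of 3, Apoc1 (1.71), with albumin (Alb) at 1.12, uncalled. The list mean of skeletal muscle ranged from 3.10 to 6.33 across E18.5 controls, while mutants of that stage kept within 2.90 to 3.09. At E16.5 it spanned 2.844 to 4.54 in mutants against 2.845 to 3.36 in controls. The stratified epithelium mean reached 5.98 among E18.5 controls and 3.96 among E16.5 mutants, from lowest values of 3.05 and 3.07. The part of these tissues in the other changes was not tested. Of 13 granulocyte markers on the array 11 were too dim to test, and S100a8 and S100a9 rose by 3.29 and 4.45 in mutants and by 3.50 and 4.85 in controls. Cardiac myosin light chains Myl3 and Myl2 rose by 3.43 and 2.38 in mutants against 1.60 and 1.14, without called differences.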

How the data were processed

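Left lung lobes of 20 mouse embryos were measured on 1 array each, in 4 groups of 5. The deposited log2 values were made by the authors with GCRMA, per the submitters' processing notes, whose version was not given in the sources used here. GCRMA corrects background, scales between arrays and gives 1 value per probe set, and it presses low signals towards a floor, which limits the size of changes that start or end there. Values were used as deposited. Of 22690 probe sets 20380 were paired with 1 gene in the platform annotation, 691 with several and 1555 with none, and 64 were array controls. Each of 12393 genes was represented by its probe set with the highest mean, and 8068 genes with a log2 value above 4 on at least 5 of 20 arrays were tested.

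Group means were fitted over all 20 arrays with limma 3.58.1 in R 4.3.3, and the E18.5 minus E16.5 change of each genotype and their difference were tested with empirical Bayes moderation, Benjamini-Hochberg adjustment over 8068 genes and a threshold of 0.05. Intervals of differences are 95% intervals of that fit. The other steps used Python 3.11.15. The number of arrays, 5 a group, limits the precision. Data over 8068 genes were simulated with each gene's mean over all arrays and its pooled spread. For the mutant change 93.5% of 200 genes changed by 1 and 70% of 200 changed by 0.5 were recovered, and for the difference 82% and 48%. False calls were 14 of 341 and 9 of 269. The simulated noise was independent, with no effect of sex, no spread of arrays along the stage axis and few changed genes. These shares and false calls therefore need not hold for the real arrays.

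The 66 gene lists (1238 of 1404 entries on the array) and the rule for named genes were chosen with earlier results of these data known. The rule took the 20 largest called rises and falls, the 15 largest differences each way, 10 genes with opposite courses, 10 each way that changed in mutants alone, and up to 4 called rises, 4 called falls, 2 differences and 2 uncalled members per list. Deviations of same-numbered arrays of the 2 stages correlated from -0.14 to 0.40 in mutants, where 3 of 5 pairs were above 0.1, and from -0.38 to 0.40 in controls. Since this did not hold for every pair and no label ties the numbers to litters, the replicate number was not used as a block. Embryo sex was read from Xist and Y-linked genes. Alternatives covered the filter, scaling, probe set choice, variance model, array weights, sex, the block, the threshold and each array left out. RefSeq promoter windows (GRCm38.p6) were searched for exact letters.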

Additional observations from a re-analysis of the deposited data

Results flagged for a closer look

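Single arrays stood apart from the other 4 of their group in 9 of the 86 groups of values checked with Dixon's test, where chance alone gives about 1 in 20. In E18.5 mutants, Cdkn1a was 7.04 in replicate 3 against 6.36 to 6.54 in the others, Ptgis was 5.74 in replicate 4 against 6.22 to 6.35, and Cd44 was 10.69 in replicate 5 against 10.84 to 10.88. Slc10a6 was 1.96 in replicate 1 against 2.07 to 2.10, near the floor. In E16.5 mutants, Vcan was 10.65 in replicate 5 against 10.38 to 10.43, Cntn1 was 2.46 in replicate 1 against 2.70 to 2.74, Inmt was 2.31 in replicate 1 against 2.36 to 2.38, and Car4 was 2.50 in replicate 4 against 2.40 to 2.43. The last 3 were dim, and their gaps were under 0.3. E18.5 control replicate 3 had a place between the stages of 0.70, against 1.02 to 1.09 for the other E18.5 controls.

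The change from E16.5 to E18.5 differed between mutants and controls for 678 genes, by the limma test of the difference itself. The genes Cdkn1a, Ptgis, Cd44, Slc10a6, Vcan, Cntn1 and Inmt are among them and kept the call in all 20 fits that left out 1 array.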

How the results depend on the processing

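The results compared under the alternatives are counts of called genes, which carry no sign. The count of genes called in mutants, 4538, was 2745 in female mutants alone (2710 shared) and 2057 with a change of at least 1.5-fold also required, and 4108 to 4753 without 1 array. The control count of 5718 was 3171 with the 1.5-fold rule and 5466 to 5809 without 1 array. The difference count of 678 depended most on the arrays: 2244 with array weights (674 shared), 1998 without both control arrays that lay between the stages (673 shared), 403 with sex in the fit (320 shared), 166 at an adjusted p under 0.01 and 393 to 1445 without 1 array. It was 408 to 450 without E16.5 control replicate 3, E18.5 control replicates 1 or 2, E16.5 mutant replicates 4 or 5, or E18.5 mutant replicates 2 or 4. The cause was not tested. Called members of the lists, 586 in mutants, were 545 to 612 without 1 array. With the replicate block the counts were 4639, 5791 and 733, and 590 for list members, and the numbers were not taken to pair the arrays. Quantile normalization and median centring shifted the median mutant change by -0.0051 and -0.049. The floor limits the sizes read for dim genes, and the number of arrays limits differences under 1.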
